A study of Mus musculus with 12 samples.

Results

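The 9 genes described here are linked to plasma cells and to the transport of secretory immunoglobulin A (IgA), the antibody of mucosal surfaces. From the plasma cell side they are Jchain, Mzb1, Derl3, Fkbp11, Sdc1, Prdm1, Irf4 and Pou2af1, and from the epithelial side Pigr. They were chosen by symbol from the table of raw counts of 18514 genes. All 9 had a row there and passed the filter on low counts that left 15484 genes for testing. RNA was sequenced from colorectal tissue of 12 male C57BL/6 mice, 4 weeks old when bought, in 4 groups of 3. Ctrl mice had neither treatment and Ctrl_Swim mice swam only. Model mice were given AOM/DSS, that is 10 mg/kg of the carcinogen azoxymethane by injection into the abdomen, followed 3 times by 7 days on drinking water with 2% dextran sulfate sodium, an irritant of the colon lining. Model_Swim mice had the same AOM/DSS course and swam for up to 90 min a day, from before the carcinogen to the end of the experiment. Mice that did not train were placed in shallow water. Libraries held 17256950 to 19451060 counts.

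IgA leaves the gut wall through a relay between separate cells. Plasma cells in the lamina propria join IgA monomers with the J chain, and the polymeric immunoglobulin receptor, the product of Pigr, binds the J-chain-containing polymer at the base of epithelial cells, carries it across and is cleaved to release it into the lumen. A B cell becomes a plasma cell under the transcription factors Irf4 and Prdm1 (Blimp-1), and Mzb1, Derl3 and Fkbp11 act in its endoplasmic reticulum, where antibody chains are folded and misfolded chains are removed. Transcripts of the IgA heavy chain and of the other immunoglobulin constant chains were not analysed here. None of the 12 listed constant chain genes had a row in the table of counts used.

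On GRCm38.p6, RefSeq places Pigr at chr1:130826684-130852249, Jchain at chr5:88519809-88527897, Pou2af1 at chr9:51213690-51240079 and Prdm1 at chr10:44437174-44528558. Derl3 lies at chr10:75893398-75895941, Sdc1 at chr12:8771396-8793716, Irf4 at chr13:30749233-30766981 and Fkbp11 at chr15:98724368-98728198. All 9 are protein-coding. RefSeq promoter windows are reported for 8 of the 9, all but Mzb1, with 9 windows because Fkbp11 has a pair of start sites. The 250 bases before the start are printed for Pigr and Jchain, the transporter and its cargo's joining chain, and for Derl3 and Pou2af1, whose windows also held a match. Capitals mark matches to the motifs given in the next paragraph, and each sequence reads 5′ to 3′ on the gene's strand and ends at the base before the start.
Pigr: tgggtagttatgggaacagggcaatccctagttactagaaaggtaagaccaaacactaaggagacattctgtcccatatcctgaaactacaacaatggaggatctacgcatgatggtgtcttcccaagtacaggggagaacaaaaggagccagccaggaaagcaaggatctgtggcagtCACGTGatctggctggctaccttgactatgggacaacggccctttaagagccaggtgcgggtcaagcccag
Jchain: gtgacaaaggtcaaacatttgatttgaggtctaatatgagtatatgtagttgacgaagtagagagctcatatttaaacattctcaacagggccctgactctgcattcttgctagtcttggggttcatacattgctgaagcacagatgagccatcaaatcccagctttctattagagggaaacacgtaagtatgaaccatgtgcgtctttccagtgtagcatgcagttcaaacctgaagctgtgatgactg
Derl3: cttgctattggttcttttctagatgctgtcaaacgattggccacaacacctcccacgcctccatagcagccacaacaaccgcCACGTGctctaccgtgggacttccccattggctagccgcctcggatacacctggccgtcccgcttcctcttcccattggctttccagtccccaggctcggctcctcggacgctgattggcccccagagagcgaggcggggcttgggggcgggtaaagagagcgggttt
Pou2af1: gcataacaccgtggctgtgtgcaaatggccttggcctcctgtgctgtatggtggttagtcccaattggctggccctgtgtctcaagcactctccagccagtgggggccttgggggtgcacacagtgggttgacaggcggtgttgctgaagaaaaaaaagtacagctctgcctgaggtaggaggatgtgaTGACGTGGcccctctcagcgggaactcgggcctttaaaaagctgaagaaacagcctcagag
These windows are chr1:130826434-130826683 (plus strand), chr5:88527898-88528147 (minus strand), chr10:75893148-75893397 (plus strand) and chr9:51213440-51213689 (plus strand).

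A set of 3 motifs was searched on both strands in these bases and in all 32851 promoter windows. The E-box CACGTG was found at -71 to -66 in Pigr and at -168 to -163 in Derl3, counted from the start site, and stood in 6.02% of all windows. The unfolded protein response element TGACGTGG, a target of the plasma cell factor XBP1, was found in Pou2af1 at -61 to -54 and stood in 0.563% of windows. No match in the members was found for the octamer ATGCAAAT to which Pou2af1 is recruited, present in 1.6% of windows. None of these matches overlapped another. Longer, gapped motifs were also tried and are not given here. A match of letters is not a measured binding site, and no binding was measured in these mice.

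Levels can be compared between genes only per transcript length, and FPKM (sequenced fragments scaled to transcript length and library size) serves for that. Pigr was the highest of the 9 and ranked 16 among all genes, with a mean over 12 mice of 1331 FPKM and a range of 1075 to 1675. Jchain ranked 118 among all genes at 463 FPKM (345 to 679), and Sdc1, the cell-surface proteoglycan syndecan-1 that marks plasma cells and is also made by epithelium, was at 80.7 FPKM (66.2 to 103.8). The other 6 were far lower, with means of 12.8 FPKM for Fkbp11, 10.9 for Mzb1, 7.89 for Pou2af1, 4.49 for Derl3, 3.37 for Irf4 and 1.65 for Prdm1. Pigr, Jchain and Sdc1 did not overlap with each other or with the gene next below in any mouse. From Fkbp11 downwards the ranges of neighbours overlapped, although in 9 of 12 mice Fkbp11 was above Mzb1, and in 11 of 12 mice Derl3 was above Irf4. In CPM, the count scaled to library size, Derl3 varied most over the 12 mice, by 3.79 times from lowest to highest, while Sdc1 varied by 1.56 times and Pigr by 1.68 times.

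**Figure D1:**
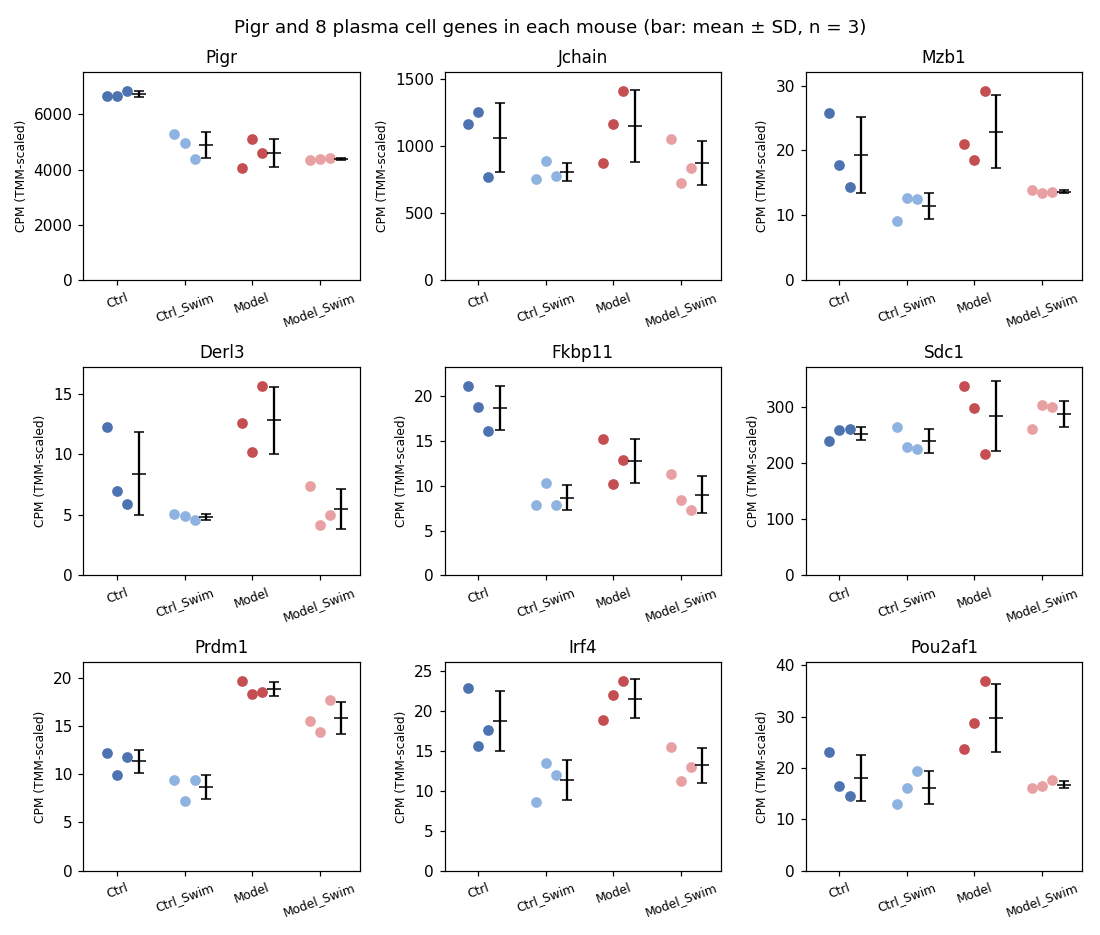
CPM, the count scaled to library size (vertical axis, linear and starting at 0), for Pigr and the 8 plasma cell genes in each of 12 mice, by group. Points are mice and the black bars give the mean ± SD of 3 mice. All 3 Ctrl points of Pigr, 6660 to 6856 CPM, lie above the other 9 mice, whereas all 6 Prdm1 points of AOM/DSS mice lie above those of the 6 mice without it.

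The first comparison, Model against Ctrl, asked how the AOM/DSS course changed these transcripts in mice that did not train. Pigr fell, Prdm1 and Pou2af1 rose, and Jchain did not pass the test. Of the 9 genes, 3 passed an adjusted p of 0.05 (edgeR's quasi-likelihood test, Benjamini-Hochberg over 15484 genes), against 32.7% of all genes tested. Without overlap between the groups were 4 of the 9, against 44.2% of all genes. Both shares are close to those of all genes.

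Pigr measured 6676, 6660 and 6856 CPM in the Ctrl mice and 4078, 5105 and 4620 CPM in the Model mice. Every Model mouse was below every Ctrl mouse. The log2 fold change was -0.55 (SE 0.092, adjusted p = 0.0020, n = 3 per group by edgeR), which is 0.684 of the Ctrl level. Epithelial markers fell in the same mice, with 11 of 16 listed colon epithelial genes lower and 0 higher. Their summed level was 33007 to 36826 CPM in Ctrl and 17993 to 31142 CPM in Model, with none of the 16 at 0. The most abundant of them, the mucin gene Muc2 (-0.23, adjusted p = 0.60) and the carbonic anhydrase gene Car1 (-1.88, adjusted p = 0.094), did not pass. In bulk tissue, fewer cells of a type and less RNA per cell cannot be told apart, for Pigr as for the plasma cell genes. The part of the epithelial share in the fall of Pigr was not tested. With the acinar sum described further on as a covariate, the estimate for Pigr was -0.40 with an adjusted p of 0.061.

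Prdm1 encodes the repressor that closes the B cell programme, and it measured 12.2, 9.97 and 11.8 CPM in Ctrl against 19.7, 18.3 and 18.6 CPM in Model. The Model mice lay closely together and all above Ctrl. The difference was 0.73 on the log2 scale (SE 0.13, adjusted p = 0.0027, edgeR). Pou2af1, the B cell coactivator OCA-B that works with octamer-binding factors, measured 23.0, 16.5 and 14.4 CPM in Ctrl and 23.7, 28.7 and 36.9 CPM in Model. Its lowest Model mouse was only just above its highest Ctrl mouse, and the difference was 0.73 (SE 0.20, adjusted p = 0.020, edgeR). Its call was lost without Ctrl 2 (adjusted p = 0.068), without Ctrl 3 (0.071), with the acinar sum described further on as a covariate (0.097) and with only these groups in the fit (0.050, just above the threshold). Leaving out Model 1 and Model 3 together, here and in what follows, leaves Model 2 as the only Model mouse, so that the spread comes from the other groups and Model 2 is assumed to vary as they do. In that fit the adjusted p was 0.068. Both genes are also expressed outside plasma cells, Prdm1 in T cells and Pou2af1 in B cells. Of the listed markers, 13 of 15 for B cells and 8 of 11 for T cells were higher in Model, with none lower, among them the most abundant, Cd79a (1.12, adjusted p = 0.0089) and Bcl6 (0.54, adjusted p = 0.048) for B cells and Cd4 (1.73, adjusted p = 0.0012) and Thy1 (0.68, adjusted p = 0.0038) for T cells. The B cell sum was 80.0 to 140.2 CPM in Ctrl and 247.0 to 290.8 CPM in Model. The T cell sum was 52.5 to 56.0 CPM in Ctrl and 102.4 to 134.1 CPM in Model. No marker of either list was at 0 throughout a group. Myeloid markers were higher too, 11 of 12 with 0 lower. Their sum was 389 to 404 CPM in Ctrl and 835 to 857 CPM in Model. The part of all these cells in the rises was not tested.

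Jchain, the polymer-joining peptide, measured 1164, 1255 and 772.0 CPM in Ctrl and 872.4, 1168 and 1412 CPM in Model. The groups overlapped widely, and the difference was 0.11 (SE 0.21, adjusted p = 0.70, edgeR). Its sign turned negative without Ctrl 3 (-0.054) and without Model 3 (-0.051). The estimate was 0.36 with the squamous sum described below as a covariate (adjusted p = 0.28, edgeR). Mzb1, an endoplasmic reticulum cochaperone of antibody assembly, was at 25.8, 17.8 and 14.4 CPM in Ctrl and 21.0, 18.6 and 29.2 CPM in Model, with a difference of 0.25 (SE 0.22, adjusted p = 0.41, edgeR) that ran from 0.046 without Model 3 to 0.53 without Ctrl 1. Irf4 differed by 0.21 (SE 0.19, adjusted p = 0.43), and by 0.11 without Ctrl 2 and 0.40 without Ctrl 1. Sdc1 differed by 0.17 (SE 0.14, adjusted p = 0.37), by 0.039 without Model 1, and passed without Model 3 (0.34, adjusted p = 0.020). For each of these the groups overlapped. Squamous epithelium also makes Sdc1, and the sum of 28 squamous genes was 3155, 4747 and 1188 CPM in Model 1, 2 and 3, where Sdc1 was 337.6, 297.5 and 216.2 CPM, against 1351 to 1733 CPM in Ctrl, where Sdc1 was 238.9 to 260.1 CPM. Of the 28, 17 were higher and 0 lower in Model, and 1 was at 0 in all Ctrl mice. With the squamous sum as a covariate the Sdc1 estimate changed sign to -0.062 (adjusted p = 0.80).

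Derl3 and Fkbp11 act in the endoplasmic reticulum, Derl3 in removing misfolded proteins and Fkbp11 as a peptidyl-prolyl isomerase, and their estimates pointed apart. Derl3 measured 12.3, 6.97 and 5.93 CPM in Ctrl and 12.6, 10.2 and 15.7 CPM in Model. Ctrl 1 was above the lowest Model mouse, and the difference of 0.61 (SE 0.28) had an adjusted p of 0.12 (edgeR), which became 1.01 with an adjusted p of 0.021 without Ctrl 1. Fkbp11 measured 21.1, 18.7 and 16.2 CPM in Ctrl and 15.2, 10.2 and 12.9 CPM in Model. All 3 Model mice were lower, yet the difference of -0.55 (SE 0.20) just missed the threshold with an adjusted p of 0.052 (edgeR). Acinar cells of the pancreas also express both genes, and markers of these cells were uneven in the Model group. A list of 29 acinar genes summed to 54794 CPM in the first Model mouse and 26682 CPM in the third, but to 394 CPM in the second, against 495 to 707 CPM in Ctrl. In Ctrl 5 of the 29 were at 0 in all 3 mice, and in Model none. Fkbp11 passed without Model 1 (adjusted p = 0.031), without Model_Swim 1 (0.047), with the acinar sum as a covariate (-0.95, 0.024), with the replicate block (0.030) and with DESeq2 (0.037). With Model 2 as the only Model mouse its estimate was -0.89 (adjusted p = 0.028), and that of Mzb1 changed sign to -0.078. With the acinar covariate Derl3 differed by 0.27 (adjusted p = 0.64) and Mzb1 by -0.046 (0.93).

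The same question in trained mice, Model_Swim against Ctrl_Swim, gave 1 of 9 genes past the threshold, against 5.18% of all genes. That gene was Prdm1, at 9.42, 7.23 and 9.45 CPM in Ctrl_Swim and 15.5, 14.4 and 17.7 CPM in Model_Swim. Again the groups did not overlap, and the difference was 0.87 (SE 0.13, adjusted p = 0.0079, edgeR). The call was lost with a replicate block (0.90, adjusted p = 0.066) and with a planned term for traces of pancreatic reads (1.13, adjusted p = 0.10). Prdm1 was thus higher without overlap in both AOM/DSS comparisons, a pattern that 7.67% of all genes showed. Of the listed myeloid markers, 7 of 12 were higher in Model_Swim than in Ctrl_Swim. Their sum was 361 to 455 CPM in Ctrl_Swim and 679 to 913 CPM in Model_Swim. Of the T cell markers 0 of 11 passed, and their sums overlapped. The part of these cells in the rise of Prdm1 was not tested. Pigr differed by -0.16 (SE 0.092, adjusted p = 0.34), with overlap. Pou2af1 was at 13.0, 16.2 and 19.3 CPM in Ctrl_Swim and 16.2, 16.5 and 17.6 CPM in Model_Swim, a difference of 0.050 (SE 0.20, adjusted p = 0.91). Mzb1 was higher without overlap but by only 0.25 (SE 0.22, adjusted p = 0.56), and by 0.10 without Ctrl_Swim 2. The estimates of the other 5, with overlap, were 0.27 for Sdc1, 0.21 for Irf4, 0.19 for Derl3, 0.11 for Jchain and 0.057 for Fkbp11.

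Averaged over trained and untrained mice, AOM/DSS changed 2 of the 9 genes, against 33.4% of all genes. Prdm1 rose by 0.80 (SE 0.094, adjusted p = 0.00025) and Pigr fell by 0.35 (SE 0.065, adjusted p = 0.0025, edgeR). Pou2af1 had an estimate of 0.39 (SE 0.14, adjusted p = 0.058), and passed without Ctrl 1 (0.020), Ctrl_Swim 4 (0.032) or Model 1 (0.028), with DESeq2 (0.032) and with limma on log2(FPKM + 1) (0.047) and log2(FPKM + 0.1) (0.046). Fkbp11, at -0.25 (adjusted p = 0.20), passed with the acinar covariate (-0.43, adjusted p = 0.045). Derl3, at 0.40, passed without Ctrl 1 (0.59, adjusted p = 0.028) and Sdc1, at 0.22, without Model 3 (0.30, adjusted p = 0.0048). With the squamous covariate the estimate of Sdc1 was 0.051 (adjusted p = 0.77, edgeR). Mzb1 (0.25), Irf4 (0.21) and Jchain (0.11) did not pass.

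**Figure D2:**
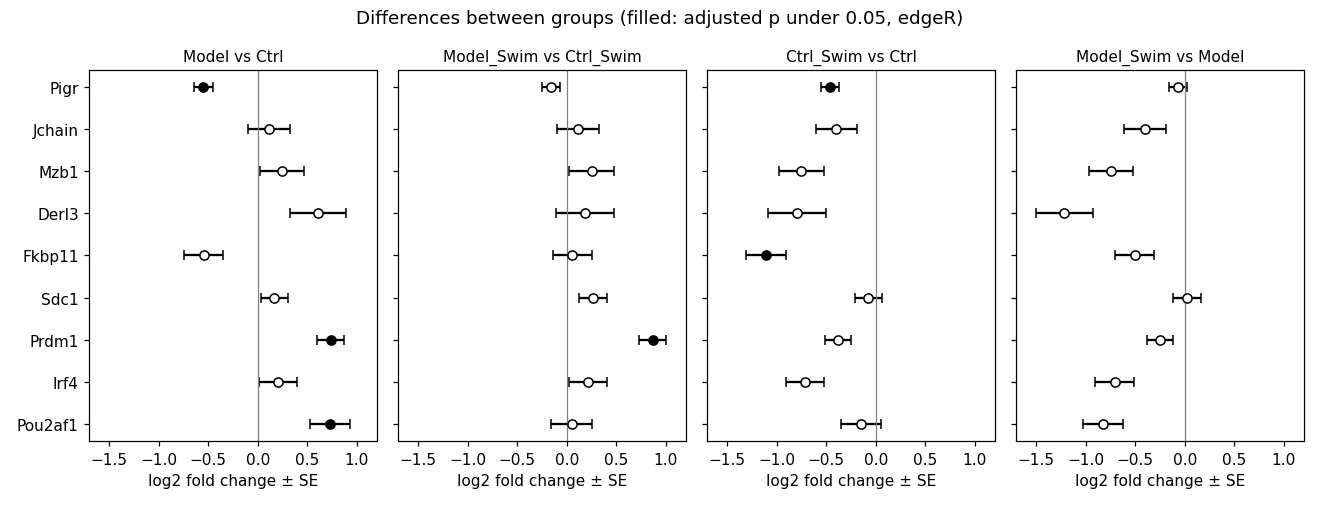
Log2 fold changes with standard errors (horizontal axis) of the 9 genes (vertical axis) in 4 comparisons of 3 mice with 3, fitted by edgeR. Filled points have an adjusted p under 0.05. Prdm1 is filled in both AOM/DSS panels, and in the Ctrl_Swim against Ctrl panel all 9 estimates are below 0 with Fkbp11 and Pigr filled.

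Swimming alone was addressed by Ctrl_Swim against Ctrl. All 9 estimates were negative, and Fkbp11 and Pigr passed the threshold, which makes 2 of 9 against 0.969% of all genes. Lower without overlap were 6 of the 9 (Mzb1, Derl3, Fkbp11, Prdm1, Irf4 and Pigr), against 14.9% of all genes. Fkbp11 measured 7.89, 10.3 and 7.82 CPM in Ctrl_Swim, all below the 16.2 to 21.1 CPM of Ctrl. Its log2 fold change was -1.11 (SE 0.20, adjusted p = 0.035, edgeR). Pigr measured 5298, 4979 and 4403 CPM in Ctrl_Swim, again below every Ctrl mouse, and fell by 0.46 on the log2 scale (SE 0.092, adjusted p = 0.047, edgeR). Both calls stood close to the threshold. Leaving out any 1 of the 6 Ctrl and Ctrl_Swim libraries (Ctrl 1, 2 or 3, Ctrl_Swim 2, 3 or 4) lost both, with adjusted p-values of 0.081 to 0.18 for Fkbp11 and 0.054 to 0.18 for Pigr. Fkbp11 was also lost without Model_Swim 2 (0.069), and Pigr without Model 2 (0.053), without any 1 Model_Swim library (0.081 to 0.087), with no filter (0.065) and with only the groups compared (0.056). The replicate block (Fkbp11 0.17, Pigr 0.27), the acinar covariate (0.053 and 0.059), the squamous covariate (0.076 and 0.087) and limma on FPKM (0.058 and 0.12) lost both.

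Irf4, Mzb1 and Derl3 were also lower without overlap in Ctrl_Swim but did not pass with edgeR. DESeq2 called 4 of the 9, Irf4 (adjusted p = 0.024) and Mzb1 (0.039) beside Fkbp11 and Pigr, against 4.59% of all genes it tested. Irf4 measured 8.60, 13.5 and 12 CPM in Ctrl_Swim against 22.8, 15.6 and 17.5 CPM in Ctrl, a difference of -0.72 (SE 0.19, adjusted p = 0.12, edgeR). For Mzb1 the Ctrl_Swim values were 9.20, 12.7 and 12.6 CPM, and the difference was -0.75 (SE 0.22, adjusted p = 0.14), or -0.47 without Ctrl 1. For Derl3 they were 5.04, 4.94 and 4.55 CPM, and the difference was -0.79 (SE 0.29, adjusted p = 0.21), or -0.40 without Ctrl 1. The 3 Derl3 values of Ctrl_Swim lay close together, whereas Ctrl ran from 5.93 to 12.3 CPM. Jchain measured 757.2, 886.5 and 777.2 CPM, of which Ctrl_Swim 2 was below and the other two above the lowest Ctrl mouse, with a difference of -0.40 (SE 0.21, adjusted p = 0.34). The difference for Prdm1, without overlap, was -0.38 (SE 0.13, adjusted p = 0.19), or -0.25 without Ctrl_Swim 3. Sdc1 and Pou2af1 had the smallest estimates, -0.075 and -0.15, with overlap.

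Model_Swim against Model asked what swimming did to these transcripts under AOM/DSS. None of the 9 passed with edgeR, against 0.071% of all genes, while 5 of the 9 (Derl3, Mzb1, Irf4, Pou2af1 and Fkbp11) had an unadjusted p under 0.05 (13.6% of all genes) and DESeq2 called 3 of them, Derl3, Irf4 and Pou2af1, against 2.33% of all genes it tested. Lower without overlap were 5 of the 9 (Mzb1, Derl3, Prdm1, Irf4 and Pou2af1), against 8.57% of all genes. Derl3 had the largest estimate of the 9. It measured 7.37, 4.13 and 5.03 CPM in Model_Swim against 12.6, 10.2 and 15.7 CPM in Model, a difference of -1.22 (SE 0.29, adjusted p = 0.15, edgeR). The acinar sum was 394 to 54794 CPM in Model and 200 to 260 CPM in Model_Swim, also without overlap. Of its 29 genes 19 were tested and none passed (lowest adjusted p = 0.060, edgeR), and 9 were at 0 in all Model_Swim mice. With this sum as a covariate the estimate was -0.74 for Derl3 (adjusted p = 0.59) and -0.33 for Mzb1 (0.76). Pou2af1 differed by -0.83 (SE 0.20, adjusted p = 0.15), its Model_Swim values of 16.2, 16.5 and 17.6 CPM lying within the Ctrl range of 14.4 to 23.0 CPM. Mzb1 measured 13.9, 13.4 and 13.6 CPM in Model_Swim, nearly the same in the 3 mice, against 18.6 to 29.2 CPM in Model (-0.75, SE 0.22, adjusted p = 0.22), and the estimate was -0.43 with Model 2 as the only Model mouse. Irf4 differed by -0.71 (SE 0.19, adjusted p = 0.19), from 18.9, 22.0 and 23.7 CPM in Model to 15.5, 11.1 and 12.9 CPM in Model_Swim. Prdm1 differed by -0.25 (SE 0.13, adjusted p = 0.44). Over the alternatives the estimate ran from -0.85 to -0.32 for Irf4 and from -0.63 to -0.18 for Prdm1. Fkbp11 differed by -0.50 (SE 0.20, adjusted p = 0.31) with overlap, and by 0.064 with the acinar covariate. The sum of the 15 B cell markers was 247.0 to 290.8 CPM in Model and 101.6 to 148.6 CPM in Model_Swim, also without overlap. Their median log2 fold change was -1.11. None of the 15 passed (lowest adjusted p = 0.13, edgeR), and none was at 0 throughout either group. Irf4 and Prdm1 are also expressed in T cells. The T cell sum was 102.4 to 134.1 CPM in Model and 86.7 to 100.3 CPM in Model_Swim, again without overlap. Of 11 T cell markers tested 0 passed (lowest adjusted p = 0.35, edgeR). The part of B cells and T cells in the lower values was not tested.

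Pigr overlapped between Model_Swim and Model. It measured 4342, 4387 and 4423 CPM in Model_Swim, inside the 4078 to 5105 CPM of Model, and differed by -0.070 (SE 0.092, adjusted p = 0.79, edgeR). Its estimate was -0.28 with the acinar covariate (adjusted p = 0.56, edgeR) and -0.20 with Model 2 as the only Model mouse. Jchain measured 1052, 726.6 and 839.9 CPM in Model_Swim, of which Model_Swim 1 was above the lowest Model mouse, with a difference of -0.40 (SE 0.21, adjusted p = 0.44), or -0.21 without Model 3. Sdc1 differed by 0.023 (SE 0.14, adjusted p = 0.96), and its sign changed when Model 3, Model_Swim 2 or Model_Swim 3 was left out.

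Mzb1, Derl3, Prdm1 and Irf4 were lower without overlap in both swimming comparisons, which share no mice. That is 4 of the 9, and 159 of all 15484 genes (1.03%) had the same pattern. Averaged over both AOM/DSS states, a contrast chosen after seeing the data, swimming gave negative estimates for all 9 genes and 2 past the threshold (0.652% of all genes). Irf4 fell by 0.71 on the log2 scale (SE 0.14, adjusted p = 0.048) and Fkbp11 by 0.81 (SE 0.14, adjusted p = 0.038, edgeR). Derl3 had an estimate of -1.01 (SE 0.21, adjusted p = 0.061) and Mzb1 of -0.75 (SE 0.16, adjusted p = 0.068), then Pou2af1 -0.49, Jchain -0.40, Prdm1 -0.31, Pigr -0.26 and Sdc1 -0.026. Leaving out 1 library moved this count between 0 and 5, the 5 without Model 3 (Mzb1, Derl3 and Pigr added). Irf4 lost its call without any single library other than Model 3 (adjusted p-values of 0.061 to 0.15), and Fkbp11 without any Ctrl or Ctrl_Swim library, Model 1, Model_Swim 2 or Model_Swim 3 (0.053 to 0.13). With the acinar covariate the estimate was -0.45 for Fkbp11 (adjusted p = 0.54) and -0.69 for Irf4 (0.42), and the replicate block gave adjusted p-values of 0.071 and 0.10. Irf4 also lost its call with DESeq2 size factors (0.054), no filter (0.057), the squamous covariate (0.058) and limma on FPKM (0.084 and 0.089). DESeq2 called 6 of the 9 in this contrast, Irf4, Fkbp11, Derl3, Mzb1, Pou2af1 and Pigr, against 3.15% of all genes it tested.

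Libraries also differed in traces of pancreatic transcripts. The sum of 6 pancreatic enzyme genes (Prss2, Ctrb1, Cela2a, Cela3b, Cpa1 and Pnlip) was 18 to 31.5 CPM in Ctrl 1, 2 and 3, Ctrl_Swim 3 and Model 2, and 0.598 to 2.09 CPM in Ctrl_Swim 2 and 4 and Model_Swim 1, 2 and 3. It was 30971 CPM in Model 1 and 14866 CPM in Model 3. This split nearly coincides with swimming, since Ctrl_Swim 3 is the only trained mouse on the side with traces. With a term for it, added after seeing the data, the averaged swimming estimate was -0.40 for Irf4 and -0.49 for Fkbp11 (both adjusted p = 1.0, edgeR). That of Derl3 was -0.97, Pou2af1 -0.49, Mzb1 -0.57, Jchain -0.23, Pigr -0.23 and Sdc1 -0.11, while that of Prdm1 was -0.64 against -0.31 without the term, and all 9 estimates were still negative. In Ctrl_Swim against Ctrl the estimate of Pigr was -0.43 and that of Fkbp11 -0.86 (both adjusted p = 0.46). Swimming and whatever the traces mark can therefore hardly be told apart in these libraries. Under this added term Prdm1 passed in Model_Swim against Ctrl_Swim, higher by 0.75 (SE 0.13, adjusted p = 0.029). The planned trace term put Model_Swim on the side with traces. With it the averaged swimming estimate was -0.59 for Irf4 (adjusted p = 0.35) and -0.68 for Fkbp11 (adjusted p = 0.31, edgeR).

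The test of whether swimming acted differently with and without AOM/DSS, the interaction, passed for 0 of the 9 genes and for 0% of all genes with edgeR, with 2 of the 9 and 19% of all genes at an unadjusted p under 0.05 and 1 of the 9 called by DESeq2, Pigr, against 5% of all genes it tested. The estimate for Pigr was 0.39 (SE 0.13, unadjusted p = 0.012, adjusted p = 0.16). For Pou2af1 it was -0.68 (SE 0.29, unadjusted p = 0.038, adjusted p = 0.23) and for Fkbp11 0.60 (SE 0.28, unadjusted p = 0.053, adjusted p = 0.27). The other estimates were -0.42 for Derl3, 0.13 for Prdm1 and 0.098 for Sdc1, with SE of 0.41, 0.19 and 0.20, and those of Irf4 (0.0082), Mzb1 (0.0044) and Jchain (-0.00056) were near 0, with SE of 0.27, 0.31 and 0.30.

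**Figure D3:**
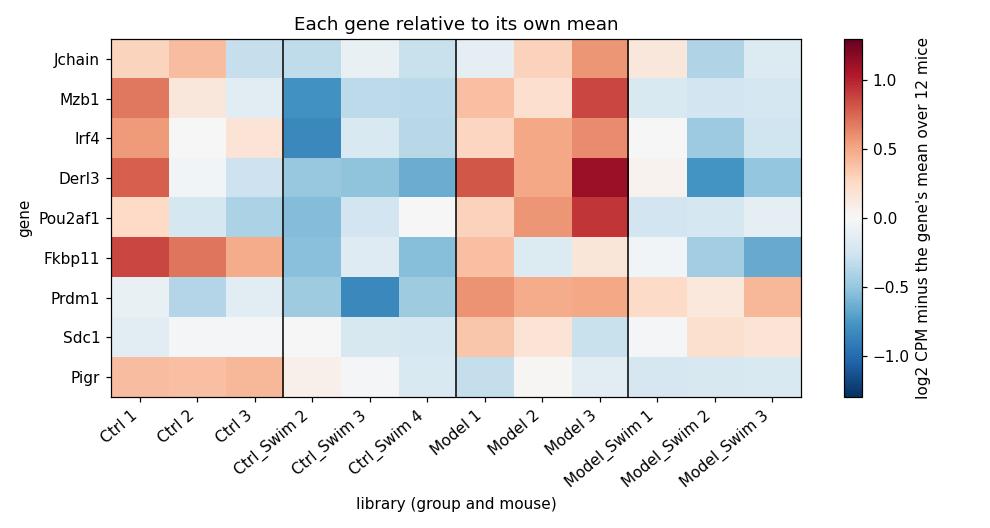
Log2 CPM of each gene (vertical axis) in each library (horizontal axis) minus that gene's own mean over the 12 mice, on a colour scale from blue (lower) to red (higher), with lines between groups of 3 mice. The upper 5 genes are mostly red in Model and blue in both swimming groups, Prdm1 is red in all 6 AOM/DSS mice, and Pigr is red in the 3 Ctrl mice.

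Across the 12 mice Mzb1, Derl3 and Irf4 followed each other most closely, and Sdc1 and Pigr stood apart from them. Pearson's r of log2 CPM was 0.91 between Mzb1 and Irf4, 0.90 between Mzb1 and Derl3, 0.88 between Derl3 and Irf4, and 0.77 between Mzb1 and Jchain. Sdc1 had r between -0.33 and -0.037 with Jchain, Mzb1, Derl3, Fkbp11, Irf4 and Pou2af1, and 0.54 with Prdm1. Pigr had r between -0.42 and 0.24 with all but Fkbp11, with which r was 0.65. These are descriptions over 12 libraries that share group, tissue and depth. The genes most like Pigr among 12026 compared were Tmbim4 (r = 0.97), Cept1 (0.96), Tm9sf1 (0.96), Slc29a4 (0.94) and Ybx3 (0.94). For Jchain they were Zfp9 (r = 0.87), Smg5 (0.84), Atf2 (0.84), Col6a2 (0.82) and Col6a1 (0.81), so none of the other 8 genes was among its 5.

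Plasma cell transcripts relative to the transporter were measured within each mouse. Jchain stood at 31.9%, 34.5% and 20.6% of the Pigr FPKM in Ctrl, 26.2%, 32.6% and 32.3% in Ctrl_Swim, 39.2%, 41.9% and 56.0% in Model and 44.4%, 30.3% and 34.8% in Model_Swim. All 3 Model mice were above all 6 mice without AOM/DSS, and Model_Swim lay across the others. On log2 CPM minus that of Pigr (limma), Jchain was 0.67 higher in Model than in Ctrl (SE 0.20, adjusted p = 0.012). By edgeR, Jchain itself differed by only 0.11 (adjusted p = 0.70) and Pigr by -0.55 (adjusted p = 0.0020), so most of this shift lay in Pigr.

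In Model against Ctrl, 7 of the 8 plasma cell genes were higher relative to Pigr, all but Fkbp11, but 65.2% of all genes were too, with Pigr itself lower. The median shift of the 8 genes was 0.79 on the log2 scale, against 0.55 over all genes. Prdm1 (1.29, SE 0.17, adjusted p = 7.8e-05), Pou2af1 (1.28, SE 0.22, adjusted p = 0.00039) and Derl3 (1.21, SE 0.29, adjusted p = 0.0036) shifted most. The ratio of Fkbp11 did not pass, at 1.28%, 1.14% and 0.957% of Pigr in Ctrl and 1.51%, 0.814% and 1.13% in Model, with a shift of 0.00044 (SE 0.23, adjusted p = 1.0). The Model mice of Fkbp11 lay on both sides of Ctrl. Without Ctrl 3, Jchain (adjusted p = 0.064) and Mzb1 (0.063) no longer passed, and with Model 2 as the only Model mouse the count was 3 of 8.

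With the mean of both AOM/DSS comparisons, 7 of the 8 genes were higher relative to Pigr, against 57.9% of all genes, and 4 with Model 2 as the only Model mouse. In Ctrl_Swim against Ctrl, 2 passed, against 61.9% of all genes. Fkbp11 was lower relative to Pigr too (-0.64, SE 0.23, adjusted p = 0.032), and Sdc1 was higher (0.39, SE 0.16, adjusted p = 0.047), at 5.82%, 5.36% and 5.98% of Pigr against 4.17%, 4.53% and 4.43% in Ctrl. The call for Sdc1 was lost without any 1 Ctrl, Ctrl_Swim or Model_Swim library or Model 2, with no filter on low counts and with the replicate block (adjusted p-values of 0.051 to 0.13). That for Fkbp11 was lost without Ctrl 1, Ctrl 2, Ctrl_Swim 2 or Ctrl_Swim 4 (0.074 to 0.11) and with the replicate block (0.094). In Model_Swim against Ctrl_Swim, Prdm1 was higher relative to Pigr (1.02, SE 0.17, adjusted p = 0.0052), which is 1 of 8 against 7.38% of all genes. In Model_Swim against Model none of the 8 passed with limma, against 0.633% of all genes, and 4 had an unadjusted p under 0.05, against 12.3% of all genes. The median shift of the 8 was -0.54, with Derl3 at -1.16 (SE 0.29, adjusted p = 0.12), Pou2af1 at -0.74 (SE 0.22, adjusted p = 0.18), Mzb1 at -0.65 (SE 0.25, adjusted p = 0.31) and Irf4 at -0.65 (SE 0.21, adjusted p = 0.23).

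**Figure D4:**
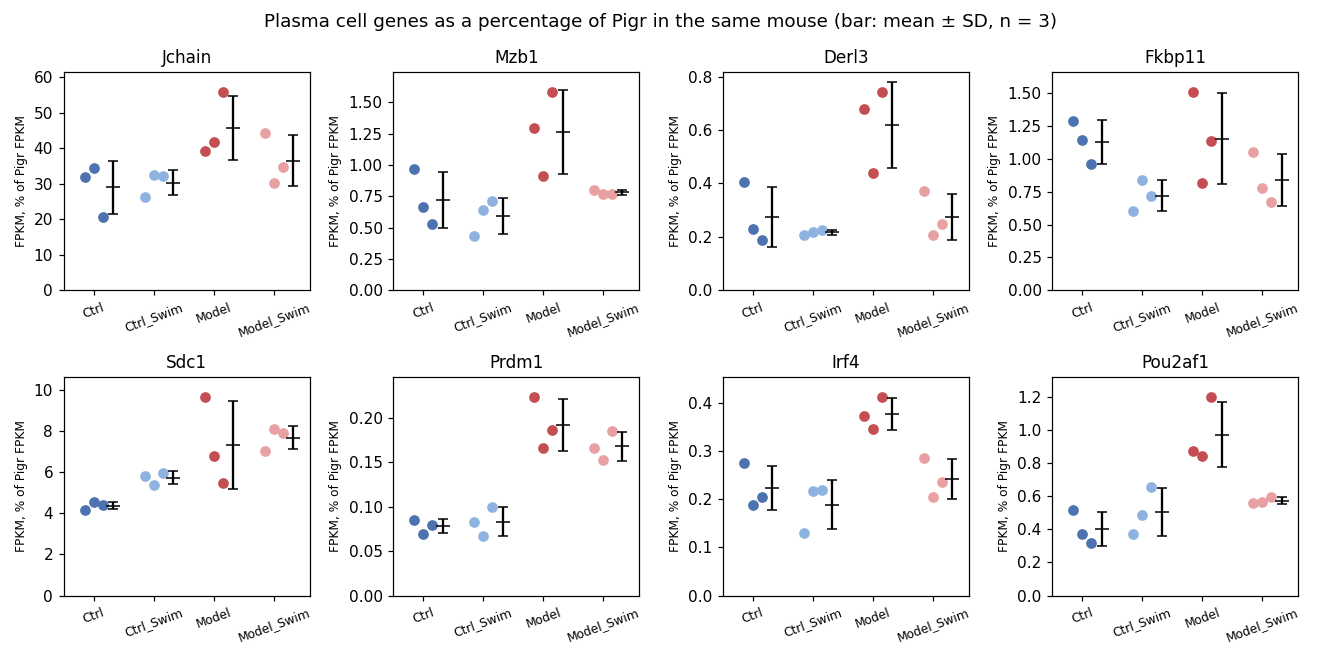
FPKM of each plasma cell gene as a percentage of the Pigr FPKM in the same mouse (vertical axes, linear from 0), by group of 3 mice, with mean ± SD. Jchain reaches 56.0% of Pigr in 1 Model mouse and 20.6% in 1 Ctrl mouse, and all 6 AOM/DSS mice lie above all 6 others for Prdm1.

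Other genes of plasma cell identity and the secretory pathway formed a list of 28, of which 27 were tested. In Model against Ctrl 5 were higher and 7 lower, 12 of 27 against 32.7% of all genes called in either direction. The median was -0.16, against 0.0055 over all genes. Lower were Sec11c, a signal peptidase subunit (-0.50, adjusted p = 0.0013), and Sec61b (-0.44, adjusted p = 0.0015) and Ssr4 (-0.43, adjusted p = 0.0027) of the protein-conducting channel. Higher was Creb3l2, a membrane-bound transcription factor of the secretory pathway (0.50, adjusted p = 0.0013). The most abundant members of the list were Hspa5, the chaperone BiP (-0.32, adjusted p = 0.026), and Hsp90b1, the chaperone GRP94 (-0.13, adjusted p = 0.35). The other 4 that rose, named after their values were seen, were Slamf7, Fam46c, Tnfrsf13b and Cd27. In the same mice the colon epithelial sum was 33007 to 36826 CPM in Ctrl and 17993 to 31142 CPM in Model. The acinar sum was 495 to 707 CPM in Ctrl, and 54794, 394 and 26682 CPM in Model 1, 2 and 3. The part of these cells in the changes of the list was not tested.

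In Ctrl_Swim against Ctrl the same list had 8 lower and 0 higher, against 0.969% of all genes called in either direction, with a median of -0.33, and its summed level was 4052 to 4504 CPM in Ctrl and 3215 to 3333 CPM in Ctrl_Swim. Hspa5 fell by 0.52 (SE 0.094, adjusted p = 0.037, edgeR), from 635 to 702 CPM in Ctrl to 430 to 495 CPM in Ctrl_Swim. Sdf2l1, a cochaperone of BiP, fell by 0.86 (adjusted p = 0.018) and Pdia6, a disulfide isomerase, by 0.69 (adjusted p = 0.018), both named after their values were seen. Hsp90b1 did not pass (-0.40, adjusted p = 0.094). Acinar cells also use this machinery, and the sum of the 29 acinar genes was 495 to 707 CPM in Ctrl and 204 to 347 CPM in Ctrl_Swim, without overlap. Of these genes 1 passed, Pnliprp2 (-4.47, adjusted p = 0.043), 5 were at 0 in all mice of each group, and their part in the lower values was not tested. In Model_Swim against Model 0 of the 27 passed with edgeR.

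Genes that induce IgA, guide IgA cells to the gut or sustain them, 24 of them tested, had 13 higher and 3 lower in Model against Ctrl, against 32.7% of all genes called in either direction, with a median of 0.80. Tgfb1, whose protein drives the switch to IgA, rose by 0.94 (SE 0.13, adjusted p = 0.00077), and its receptor gene Tgfbr2 by 0.49 (SE 0.062, adjusted p = 0.00061). Icos (1.90, adjusted p = 0.0014) and Cd86 (1.36, adjusted p = 0.00096), a costimulatory receptor and a ligand of lymphocyte activation, rose too. B cell markers summed to 80.0 to 140.2 CPM in Ctrl and 247.0 to 290.8 CPM in Model. For T cells the sums were 52.5 to 56.0 CPM in Ctrl and 102.4 to 134.1 CPM in Model. For myeloid cells they were 389 to 404 CPM in Ctrl and 835 to 857 CPM in Model. The part of these cells in the rises was not tested. Ccl28, the epithelial chemokine that recruits IgA plasma cells, was at 136 to 148 CPM in Ctrl and 125 to 152 CPM in Model and did not pass (-0.072, adjusted p = 0.52). Averaged over trained and untrained mice, Ccl28 fell by 0.19 (adjusted p = 0.024, edgeR). It was lower without overlap in Model_Swim than in Ctrl_Swim (-0.31, adjusted p = 0.050, just above the threshold, edgeR). Against Model, too, Model_Swim was lower without overlap (-0.33, adjusted p = 0.15, edgeR).

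Signals known to raise Pigr transcription in epithelial cells, with their receptors, were 21 tested genes. In Model against Ctrl 8 were higher and 3 lower, against the same 32.7% of all genes, with a median of 0.15. Il1b rose by 4.09 (SE 0.55, adjusted p = 0.00074) and Tnf by 3.32 (SE 0.48, adjusted p = 0.0010), from 0.440 to 0.717 CPM in Ctrl to 2.70 to 8.52 CPM in Model. Il4ra rose by 0.85 (adjusted p = 0.00031) and Tnfrsf1b by 0.88 (adjusted p = 0.00083). Hnf4a, a transcription factor of the epithelium, fell by 0.38 (adjusted p = 0.014), and Ifngr1 did not pass (-0.024, adjusted p = 0.83). In the same mice Pigr was lower. The myeloid sum was 389 to 404 CPM in Ctrl and 835 to 857 CPM in Model. The colon epithelial sum was 33007 to 36826 CPM in Ctrl and 17993 to 31142 CPM in Model. The part of these cells in the changes of the list was not tested.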

How the data were processed

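Total RNA from colorectal tissue was sequenced as stranded mRNA libraries. The authors aligned reads to GRCm38.p6 with HISAT2 and deposited raw read counts per gene, made with HTSeq-count. The authors also deposited FPKM values from Cufflinks, used here for levels between genes. Counts of 18514 genes were fitted with edgeR 4.0.16 in R 4.3.3 (quasi-likelihood test, TMM scaling, filterByExpr with a minimum count of 10, all 12 libraries in 1 model of 4 groups), and called at a Benjamini-Hochberg adjusted p under 0.05 over 15484 genes. CPM use TMM-scaled library sizes. Values relative to Pigr were log2 CPM (prior count 2) minus that of Pigr, fitted with limma 3.58.1. The code was tested on simulated data.

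The 9 genes and all gene lists were chosen with earlier results of these data known. The text names the 9 genes in every edgeR comparison, for the pathway lists in Model against Ctrl the 2 most abundant and up to 4 with the lowest adjusted p, for the marker lists mainly counts and sums, and the 5 genes most correlated with Jchain and Pigr. Further genes are named as chosen after their values were seen. Mice are the replicates, 3 per group. In the main fits the spread behind each p-value was estimated over all 12 libraries of the 4 groups together. Libraries of a group differed beyond sampling noise and none were identical. Ctrl_Swim mice carry the numbers 2 to 4. Alternatives were DESeq2 1.42.0 and its size factors, no filter, limma on log2(FPKM + 1) and log2(FPKM + 0.1), a fold limit of 2 or 0.5, covariates, a replicate block and leaving out libraries. Immunoglobulin constant genes were not analysed here. Promoter windows and positions are from RefSeq on GRCm38.p6.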

Additional observations from a re-analysis of the deposited data

How the results depend on the processing

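Of 2027 values of single genes under alternatives, 1845 kept their direction and side of the threshold, 101 lost and 35 gained the threshold, and 46 changed sign, all 46 with an adjusted p above 0.05. Counts moved by more than 1.5 times in 69 of 257 cases, and the cause was not tested.

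With a fold over 2 or under 0.5 added, the number of the 9 genes called was 0 in Model against Ctrl, 1 in Ctrl_Swim against Ctrl, 0 in Model_Swim against Ctrl_Swim, 0 for the mean AOM/DSS comparison and 0 for averaged swimming. Shares of all genes are not given for this limit or for the fits with 1 Model mouse. Such counts are therefore no result about the 9 genes against all genes. DESeq2 called 3 in Model_Swim against Model, 4 in Ctrl_Swim against Ctrl, 1 in the interaction and 6 for averaged swimming, against 2.33%, 4.59%, 5% and 3.15% of all genes it tested. In Ctrl_Swim against Ctrl the count was 1 with no filter or only the groups compared, and 0 with the replicate block, the acinar or squamous covariate, either term for pancreatic traces, or limma on FPKM with either pseudocount. For averaged swimming it was 1 with DESeq2 size factors, no filter, the squamous covariate or limma on FPKM, and 0 with the replicate block, the acinar covariate or either trace term. The planned trace term, which put Model_Swim on the side with traces, gave 0 in Model_Swim against Ctrl_Swim. Relative to Pigr, Ctrl_Swim against Ctrl had 1 without a filter. Without Model 1 and Model 3, which leaves 1 Model mouse assumed to vary like the other groups, the relative counts were 3 in Model against Ctrl, 2 in Model_Swim against Ctrl_Swim and 4 for the mean AOM/DSS comparison.

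Replicate numbers did not pair the mice: 4 of 15 same-numbered pairs and 13 of 39 other pairs had deviations correlated above 0.1. The replicate block gave 0 called in Ctrl_Swim against Ctrl (relative to Pigr also 0), 0 in Model_Swim against Ctrl_Swim and 0 for averaged swimming. Under it Derl3 (-0.077) and Fkbp11 (-0.16) changed sign in Model_Swim against Ctrl_Swim, as did Sdc1 for averaged swimming (0.0029).

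With the acinar covariate the estimates that changed sign were Mzb1 in Model against Ctrl (-0.046) and, in Model_Swim against Model, Fkbp11 (0.064) and Sdc1 (-0.045), and with the squamous covariate Sdc1 in Model against Ctrl (-0.062). With the planned trace term, Model_Swim against Ctrl_Swim gave Jchain -0.023, Fkbp11 -0.19 and Irf4 -0.030, and with that of 6 genes Sdc1 was -0.075 in Model_Swim against Model. On FPKM, Sdc1 was 0.049 and 0.050 in Ctrl_Swim against Ctrl and 0.040 and 0.040 for averaged swimming. Without Model 1 and Model 3, Mzb1 was -0.078 in Model against Ctrl and Sdc1 -0.028 in Model_Swim against Model. Relative to Pigr, the same libraries left out gave Fkbp11 -0.45 in Model against Ctrl, 0.013 in Model_Swim against Model and -0.13 for the mean AOM/DSS comparison, and Prdm1 0.011 in Model_Swim against Model. A prior count of 0.5 gave Fkbp11 -0.0026 in Model against Ctrl.

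Leaving out 1 library in turn gave 0 to 2 called in Ctrl_Swim against Ctrl, 2 to 4 for the mean AOM/DSS comparison, 0 to 5 for averaged swimming and, relative to Pigr, 0 to 2 in Ctrl_Swim against Ctrl and 1 to 2 in Model_Swim against Ctrl_Swim. Estimates that crossed 0 ranged, in Model against Ctrl, from -0.054 to 0.29 for Jchain, and in Ctrl_Swim against Ctrl from -0.29 to 0.084 for Pou2af1. In Model_Swim against Model they ranged from -0.15 to 0.00046 for Pigr and -0.13 to 0.16 for Sdc1, and for averaged swimming from -0.095 to 0.050 for Sdc1. In Model_Swim against Ctrl_Swim they were -0.049 to 0.22 for Jchain, -0.084 to 0.35 for Derl3, -0.14 to 0.19 for Fkbp11 and -0.098 to 0.20 for Pou2af1. Relative to Pigr, Fkbp11 ranged from -0.22 to 0.23 in Model against Ctrl and from -0.0081 to 0.21 for the mean AOM/DSS comparison, Sdc1 from -0.081 to 0.33 in Model_Swim against Model, and in Ctrl_Swim against Ctrl Jchain from -0.14 to 0.24, Derl3 from -0.47 to 0.066 and Prdm1 from -0.056 to 0.22.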

Other observations

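In the comparison of trained mice, Model_Swim against Ctrl_Swim, 4 of the 21 inducers of Pigr and their receptors were higher and 0 lower (edgeR), against 5.18% of all genes called in either direction. They were Il1b (3.69, adjusted p = 0.0061), Tnf (2.18, adjusted p = 0.025), Tnfrsf1b (0.88, adjusted p = 0.0047) and Il4ra (0.62, adjusted p = 0.0034). Of the 24 genes of IgA induction, homing and survival, 3 were higher, Tgfbr2 (0.31, adjusted p = 0.022), Cxcr4 (1.03, adjusted p = 0.044) and Icos (1.16, adjusted p = 0.047). Except for Tgfbr2 these were named after their values were seen.

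Myeloid markers were higher in both AOM/DSS comparisons, 11 of 12 in Model against Ctrl and 7 of 12 in Model_Swim against Ctrl_Swim, with 0 lower. Lyz2, the lysozyme of macrophages and neutrophils, rose by 1.35 in Model (SE 0.12, adjusted p = 0.00029). B cell markers, 13 of 15 higher in Model against Ctrl, had 0 of 15 past the test in Model_Swim against Ctrl_Swim. Their summed level was 101.6 to 148.6 CPM in Model_Swim and 103.9 to 253.1 CPM in Ctrl_Swim, so these groups overlapped. The interaction passed for 0 of the 15 B cell markers.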
